A study of Mus musculus with 8 samples.

Results

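Clustered protocadherins are cadherin-type adhesion proteins of the cell surface, best known from neurons, where each cell uses its own combination of them. Their genes lie side by side in an alpha, a beta and a gamma sub-cluster on mouse chromosome 18. Each variable first exon of the alpha and gamma sub-clusters has a promoter of its own and is spliced to constant exons that the whole sub-cluster shares, whereas beta genes have no such constant exons. Promoter choice is known to depend on the insulator protein CTCF and on cohesin, and the repressors SMCHD1 and SETDB1 are known to act at the clusters. All genes of the mm10 annotation (GENCODE M21) with a Pcdha, Pcdhb or Pcdhg symbol of the clustered type were taken, which gave 58 members, 14 alpha, 22 beta and 22 gamma, against 21938 protein-coding genes on chromosomes 1 to 19, X and Y. Of the members, 57 are annotated as protein-coding (Pcdhgb8 is a polymorphic pseudogene), and all 58 lie on the plus strand.

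Chromatin immunoprecipitation with sequencing (ChIP-seq) had been done in mouse embryonic stem cells (ESCs) of the line EHMT2-dTAG-mcherry, from a BL6/129 hybrid background, and its peak lists were analysed. In every group, controls included, the endogenous Ehmt2 gene, which encodes an H3K9 methyltransferase, carries a degron with hemagglutinin (HA) tags followed by mCherry, and an HA antibody was used to pull the tagged protein down. Cells received DMSO or the degrader dTAG-13 for 24 h, and the 8 samples comprised 2 ChIP samples (2 clones) and 2 inputs from DMSO-treated cells for the HA antibody C29F4, and 1 ChIP and 1 input for each treatment for the HA antibody ab9110. Values came from 4 lists: C29F4 DMSO (both replicates merged, 11010 peaks), ab9110 DMSO (40816), ab9110 dTAG (16324) and the dTAG input (2050). The C29F4 and ab9110 libraries were separate experiments, so antibody and experiment cannot be told apart. With 1 list per condition there was no replicate check and no test. All intervals are exact 95% intervals that cover counting error only, and peaks or first exons of 1 locus are not replicates of a condition.

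Depth differed between the lists. From the fold enrichment (fragment pileup over background at the summit, with 1 added to each) and the p-value of each peak, the mean fragment coverage was reconstructed. It was 3.64 in C29F4 DMSO and 2.11 in ab9110 DMSO, while the dTAG ChIP had 1.23 and its input 0.978. At these coverages, 12, 9, 7 and 8 fragments were the fewest that reached the lowest −log10 p (the weakest call) of the respective list, which corresponds to folds of 2.8, 3.22, 3.59 and 4.55. A weaker enrichment over mean background was not detectable at this depth.

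The members span 912 kb, chr18:36930184-37841873 (mm10), from Pcdha1 to the end of the shared gamma exons. The alpha sub-cluster runs from Pcdha1 to Pcdhac2 and on through its constant exons over 257 kb (chr18:36930184-37187661), the beta sub-cluster from Pcdhb1 to Pcdhb22 over 260 kb (chr18:37264938-37524479) and the gamma sub-cluster from Pcdhga1 to Pcdhgc5 over 180 kb (chr18:37661793-37841873). They are separated by 77.3 kb and 137 kb. Because all alpha gene bodies run to the same constant exons, and the read-through genes Gm42416, Gm37013 and Gm37388 are annotated across most of the span, the first exon was taken as the unit of each member. Symbols are those of GENCODE, which gives Pcdha11 to a pair of neighbours; ENSMUSG00000007440, which starts at 37005203, is Pcdha10 in RefSeq (GRCm38.p6), and ENSMUSG00000102206 is its Pcdha11.

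C29F4 DMSO had no peak anywhere in the span. The count of 0 has a Poisson interval of 0 to 3.69, and the mean density of the list (4.16 peaks per Mb) corresponds to 3.79 peaks over this length, or 3.06 peaks when only q-values under 0.001 are counted. Of 2842 consecutive genome windows of the same length, 9.54% also had no C29F4 peak. Chromosome Y supplied 90 of these empty windows. Both further counts were added after the values were seen: without chromosome Y the share was 6.58% of 2751. Among the 874 windows outside chromosome Y that held 15 to 21 ab9110 DMSO peaks, close to the count in the span, it was 4.23%. An empty stretch of this length was thus found in 4.23% to 9.54% of windows, depending on which windows were counted.

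The closest C29F4 peaks lay well outside the genes. One was 250 kb before Pcdha1 (chr18:36679716-36680096, fold 6.13) and the other 215 kb after the last gamma exon (chr18:38056539-38056920, fold 3.58). The interval between them was 1376 kb, against a median of 125 kb between neighbouring C29F4 peaks. Of 10989 such intervals outside chromosome Y, 112 were at least as long, and these held 8.68% of the sequence between peaks. From the start of a member to the nearest C29F4 summit the distance ranged from 237 to 675 kb, with a median of 369 kb. The beta genes in the middle were farthest (539 to 675 kb). Over all protein-coding genes the median was 131 kb.

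ab9110 DMSO had 18 peaks in the span (Poisson interval 10.7 to 28.4), against 14.1 at the mean density of that list. ab9110 dTAG had 7 (2.81 to 14.4), against 5.62, and the dTAG input had 1 (0.0253 to 5.57), against 0.705. Each of these counts was within its counting interval of the list density. Of the windows of the same length, 29.9% held at least 18 ab9110 DMSO peaks (30.9% without chromosome Y), 33.3% held at least 7 ab9110 dTAG peaks (34.4% without it) and 48.9% held at least 1 input peak. Both with DMSO and with dTAG, the span thus lay within the common range of the ab9110 lists. The absence of C29F4 peaks and the presence of ab9110 peaks cannot be set against each other by a test, since the lists came from different experiments and differed in depth and number.

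**Figure D1:**
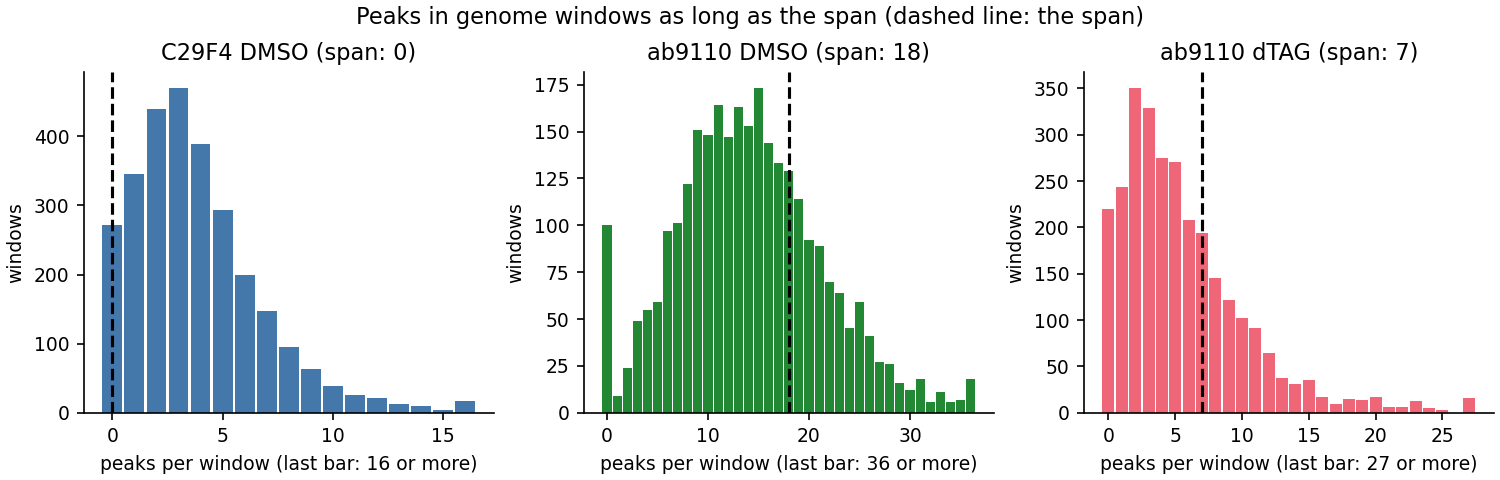
Number of peaks in each of 2842 genome windows as long as the protocadherin span (x axis, peaks per window; y axis, number of windows) for the 3 ChIP lists, with the span as a dashed line. The span sits at the lowest value, 0, for C29F4 DMSO and on the upper shoulder of the distribution for ab9110 DMSO (18, window median 14) and ab9110 dTAG (7, window median 5).

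Within each list the counting intervals of the sub-clusters overlapped. In ab9110 DMSO the alpha sub-cluster held 4 peaks (1.09 to 10.2) where the list density gives 3.97. The beta sub-cluster held 3 (0.619 to 8.77) against 4.00, and the gamma sub-cluster 6 (2.2 to 13.1) against 2.78. The gamma count was the highest relative to the list, with a density ratio of 2.16 whose interval, 0.793 to 4.70, includes 1. Between alpha and beta there were 2 peaks against 1.19, and between beta and gamma 3 against 2.12.

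In ab9110 dTAG the alpha and gamma sub-clusters held 3 peaks each (0.619 to 8.77), against 1.59 and 1.11. The beta sub-cluster held none (0 to 3.69), against 1.60, and the interval between beta and gamma held 1, against 0.847. The distance from a beta gene to the nearest ab9110 dTAG summit was accordingly 138 to 255 kb, while for gamma genes it was 0.043 to 43.4 kb. Over all protein-coding genes the median was 23.9 kb, with quartiles of 0.419 and 82.2 kb. Neighbouring genes share the same few peaks, so these distances restate the counts. The single input peak lay in the gamma sub-cluster. Of all 26 peaks of the 4 lists, none lay between 37370297 and 37539896, a stretch of 170 kb that holds the 14 beta genes from Pcdhb9 to Pcdhb22. This stretch was picked out after the peaks were seen, and the share of such stretches over the genome was not counted. The list means are 15.4 (ab9110 DMSO) and 6.17 (ab9110 dTAG) peaks per Mb. The ab9110 DMSO peaks that bound it lie wholly in sequence marked as repeats in the reference, so their placement is uncertain.

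**Figure D2:**
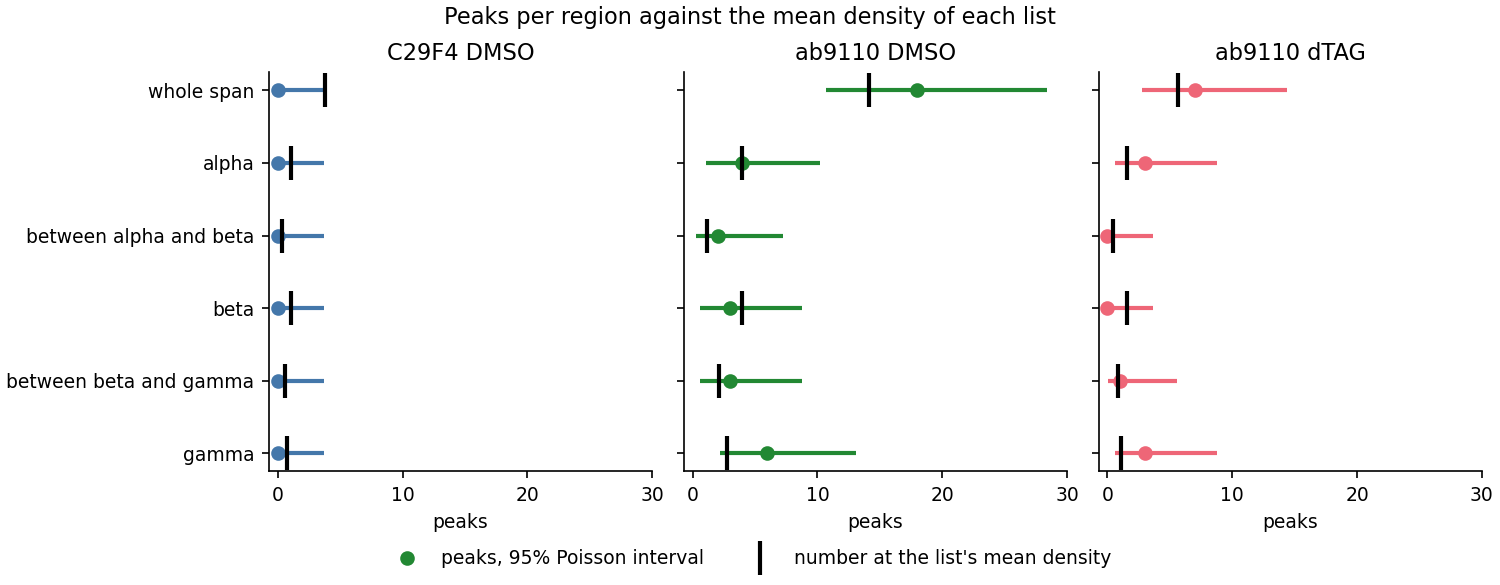
Peaks in the whole span, the 3 sub-clusters and the 2 intervals between them (points, with exact 95% Poisson intervals as bars) for each ChIP list, beside the number that the mean density of the list gives for that length (black ticks). Every tick lies within its bar except for C29F4 DMSO over the whole span, where 3.79 lies just above the upper bound of 3.69. The bars cover counting error only and not the uneven spread of peaks over the genome. Of the genome windows as long as the span, 9.54% held no C29F4 DMSO peak.

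**Figure D3:**
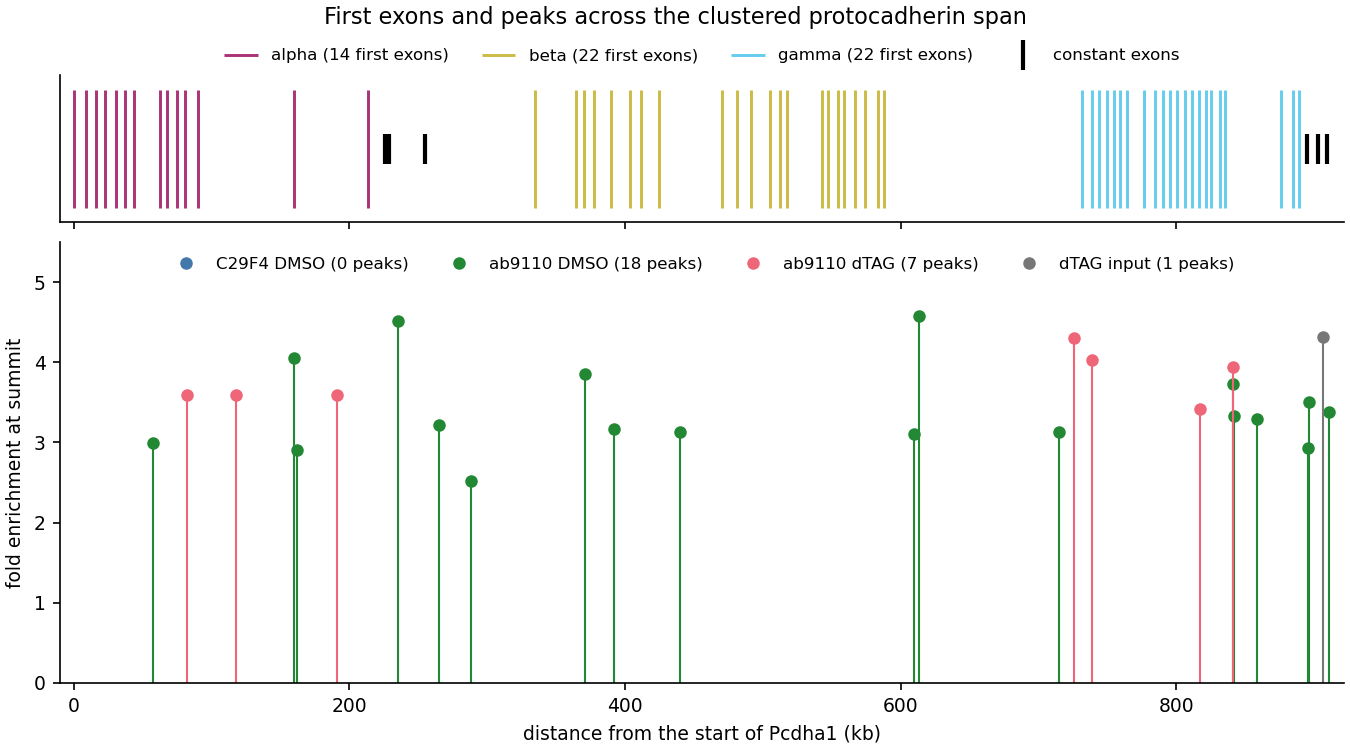
Positions of the 58 first exons by sub-cluster and of the constant exons (top), and of the 26 peaks with their fold enrichment at the summit (bottom), in kb from the start of Pcdha1. Peaks of ab9110 DMSO and ab9110 dTAG are scattered over exons and intervals with folds between 2.52 and 4.58, and C29F4 DMSO has none. The beta genes from Pcdhb9 onwards lie in a stretch without peaks, picked out after the peaks were seen and given without a genome background.

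Few first exons carried a peak. In C29F4 DMSO none of 58 did (0 to 6.16%), against 0.875% of all protein-coding genes. In ab9110 DMSO 3 of 58 did, 5.17% (1.08 to 14.4%), against 16.7%, and in ab9110 dTAG 3 of 58 did, 5.17% (1.08 to 14.4%), against 26.6%. In the input none did, against 0.638%. The background of all protein-coding genes includes the 57 protein-coding members. In total 6 members had a first-exon peak in a list and 52 had none, and no member had one in more than 1 list. For both ab9110 lists the share in all protein-coding genes lay above the upper bound for the members.

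First exons of the members are long, so a background of like length was added after their values were seen. Their median length was 2608 bp, against 208 bp for all protein-coding genes. Among the 437 protein-coding genes outside the clusters with a first exon of at least 2 kb, 3.2% had a C29F4 DMSO peak, 19% an ab9110 DMSO peak, 26.3% an ab9110 dTAG peak and 1.6% an input peak in it. The median GC share of these exons was 51.5%, next to 51.7% for the members, and their median observed over expected CpG was 0.476, next to 0.487. The ab9110 shares of the members were thus below those of exons of like length as well. Base composition was alike in the median but was not matched. The GC quartiles of the long exons were 46.1% and 56.6%, with a highest value of 71.5%. For the members they were 47.3% and 53%, with a highest value of 57%. Transcription was not measured in these files, so its part in the difference was not tested.

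A window of 1 kb on each side of the start, also added after the values were seen, also gave lower shares in the ab9110 lists. No member start had a C29F4 DMSO peak (1.75% of all protein-coding genes) or an input peak (1.04%). An ab9110 DMSO peak was near 2 of 58 starts, 3.45% (0.42 to 11.9%), against 22.1%, and an ab9110 dTAG peak near 2, against 29.6%.

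Counted per base, the members' first exons, which made up 19.5% of the bases of the span, held 3 ab9110 DMSO summits, 1.09 times the mean density of the list (0.225 to 3.18). Over first exons of all protein-coding genes the ratio was 11.4, and over the long first exons it was 2.60 (1.98 to 3.35). For ab9110 dTAG the members also held 3 summits, 2.72 times the list density (0.562 to 7.96), against 48.1 over all protein-coding genes and 7.38 over the long first exons (5.72 to 9.37). The interval of the members overlaps that of the long first exons in both lists. Per base, the ratio of the members was thus below that over all protein-coding first exons, which are shorter (median 208 bp against 2608 bp). Against the long first exons no difference can be read from these wide counting intervals.

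**Figure D4:**
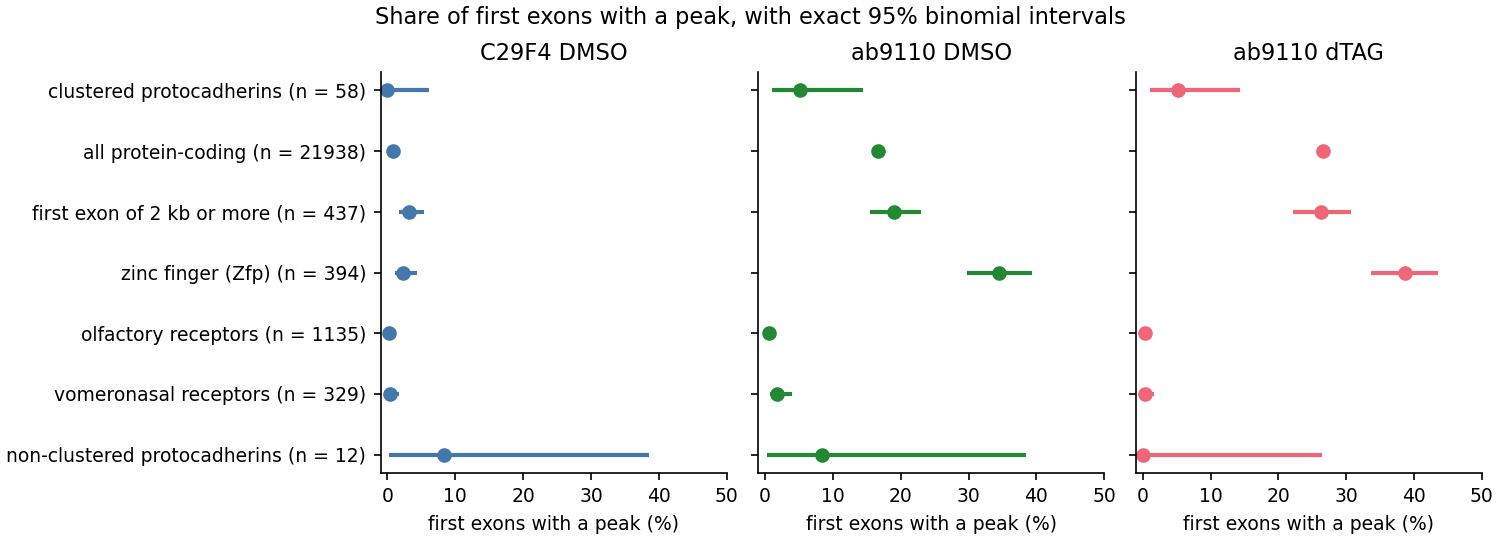
Share of first exons that overlap a peak of each ChIP list (points, percent, with exact 95% binomial intervals as bars) for the clustered protocadherins and 6 other gene sets, with the number of genes in brackets. In both ab9110 lists the clustered protocadherins (5.17%) lie below all protein-coding genes and zinc finger genes and above the olfactory and vomeronasal receptors. The shares are not adjusted for exon length, and first exons of the receptor and zinc finger families are shorter than those of the members.

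Among the alpha genes, Pcdhac1 was the only member with 2 peaks in its first exon. Pcdhac1 is a C-type isoform, a class that neurons use more uniformly than the other alpha genes. Its stronger ab9110 DMSO peak (chr18:37089873-37090134) had a fold of 4.06, 21 fragments over a background of 4.42 and a −log10 q of 5.58, and its summit lay 1 bp before the annotated start. This was the lowest q-value of all peaks in the span. Its GC share was 66%, the highest among these peaks, and its observed over expected CpG was 0.702. The second peak (chr18:37091707-37092201), inside the same exon with its summit 1991 bp after the start, had a fold of 2.90 from 13 fragments. Neither overlapped a peak of another list.

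Pcdha11 (ENSMUSG00000102206) had the only alpha first-exon peak in ab9110 dTAG, chr18:37012404-37012694, with its summit 1846 bp after the start and a fold of 3.59. It rested on 7 fragments over 1.23, the fewest that could be called, and 14.6% of its 100-base words occur elsewhere in the genome. It also overlaps an exon of the antisense gene Gm10545. The other alpha dTAG peaks, chr18:37047955-37048315 between Pcdha12 and Pcdhac1 and chr18:37120867-37121246 between Pcdhac1 and Pcdhac2, had the same fold and the same 7 fragments. They were 77.0% and 91.1% soft-masked, that is, marked as repeats in the reference. The first and the last variable alpha genes, Pcdha1 and Pcdhac2, had no first-exon peak.

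Among the beta genes, Pcdhb3 and Pcdhb5 had a peak in the first exon, both in ab9110 DMSO. The Pcdhb3 peak (chr18:37300707-37301180) had a fold of 3.86, 11 fragments over the mean coverage of 2.11, and a summit 157 bp after the start. The Pcdhb5 peak (chr18:37322108-37322372) had a fold of 3.17, 12 fragments over 3.10, and a summit 1900 bp after the start, at a GC share of 62.6% within an exon of 47.8%. Pcdhb1 and Pcdhb22 had none. For Pcdhb6 and Pcdhb8 the annotated first exon is a short leader of 142 and 185 bp, so a peak over their main coding exon would not count as a first-exon peak. None was missed in this way, since no peak of any list lay between 37322372 and 37370040.

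Among the gamma genes, Pcdhga2 and Pcdhga10 had a first-exon peak, both in ab9110 dTAG. The Pcdhga2 peak (chr18:37668904-37669309) had a fold of 4.03, 9 fragments over 1.48, and a summit 43 bp after the start. The Pcdhga10 peak (chr18:37747563-37747805) had a fold of 3.42, 9 fragments over 1.92, and a summit 659 bp after the start, and it overlaps an exon of the transcript Gm26672. No gamma first exon had an ab9110 DMSO peak. Pcdhga1 and Pcdhgc5 had none in any list.

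Most peaks lay outside the first exons. The highest fold of the span, 4.58, belonged to an ab9110 DMSO peak between beta and gamma (chr18:37543652-37544078, 17 fragments over 2.93), which is 93.7% soft-masked and lies 26020 bp past the start of Pcdhb22. Next was the widest one, chr18:37165402-37166131 (730 bp, fold 4.51, 13 fragments over 2.11), in the intron between alpha constant exons. Near the end of the gamma sub-cluster, chr18:37826141-37826706 (fold 3.50, 23 fragments over 5.87) lies within an intron just after the first gamma constant exon, and chr18:37840770-37841044 (fold 3.38) in the last one. The latter was the only peak of any list in a constant exon.

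Past the start of Pcdhga12 lay a pair of ab9110 DMSO peaks, chr18:37771296-37771799 (fold 3.73, 22 fragments over 5.16) and chr18:37772051-37772438 (fold 3.33, 13 fragments over 3.2). The first of them overlapped the ab9110 dTAG peak chr18:37771490-37771840 (fold 3.94, 13 fragments over 2.55). It was the only place in the span where peaks of 2 lists coincided. Farther on, chr18:37788912-37789179 (fold 3.29) was 86.2% soft-masked and lay between Pcdhga12 and Pcdhgc3.

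The strongest ab9110 dTAG peak, chr18:37655691-37656086, lay between beta and gamma, 5893 bp before Pcdhga1, in an exon of the lincRNA 3222401L13Rik. Its fold was 4.30 from 17 fragments over 3.19. The input peak, chr18:37836582-37836810, had a fold of 4.32 from 10 fragments over 1.55 and lay in an intron between gamma constant exons. It overlapped none of the 25 ChIP peaks.

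The remaining ab9110 DMSO peaks had low folds. They lay in an intron of the pseudogene Gm36858 before Pcdha8 (chr18:36987326-36987683, fold 2.99), between alpha and beta (chr18:37195118-37195318, fold 3.22, and chr18:37217789-37218468, fold 2.52), after Pcdhb8 (chr18:37370040-37370296, fold 3.13), between beta and gamma (chr18:37539897-37540119, fold 3.11, and chr18:37645363-37645563, fold 3.13) and in the gamma constant region (chr18:37825629-37825829, fold 2.93). Of these, 3 were wholly soft-masked, with 83.9 to 100% of their 100-base words repeated elsewhere in the genome. Reads with several possible locations were assigned to 1 of them, so the placement of those peaks is uncertain.

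The ab9110 DMSO peaks of the span were near the middle of their list in strength, and the ab9110 dTAG peaks were in its weaker part. The 18 ab9110 DMSO peaks had folds from 2.52 to 4.58 with a median of 3.26, against a median of 3.28 for the list, and 9 of them had a lower fold than that. By −log10 q their median percentile in the list was 41.0. They rested on 9 to 23 fragments, and 4 of them on the fewest that could be called at mean coverage. The 7 ab9110 dTAG peaks had folds from 3.42 to 4.30 with a median of 3.59, against 3.78, and 3 of them rested on the fewest callable fragments. Their median percentile in the list was 32.1 by fold and 15.3 by −log10 q, with a median −log10 q of 1.45 where the list begins at 1.31. With q-values under 0.01, 9 ab9110 DMSO and 3 ab9110 dTAG peaks were left, against 8.24 and 3.40 at the density of the equally filtered lists.

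The lists shared little in the span. Just 1 of the 18 peaks found with ab9110 and DMSO was met by a dTAG peak, 5.56% (0.141 to 27.3%), against 18.9% of the whole list and 13.6% of its peaks with folds between 2.52 and 4.58. None overlapped a C29F4 peak (0 to 18.5%), against 18.1% of the list and 10.6% in that fold range, and none the input, against 0.625%. Of the 7 ab9110 dTAG peaks, 1 overlapped an ab9110 DMSO peak, 14.3% (0.361 to 57.9%), against 46.8% of its list, and none a C29F4 peak (0 to 41.0%), against 14.8%. All these background shares lay within the intervals of the span.

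The lower coverage with dTAG bears on this comparison. The fragments at each ab9110 DMSO summit were thinned to 58.2%, the ratio of the coverages, and held to the lowest −log10 p of the dTAG list, 4.28. By this calculation 6.36 of the 18 peaks, 35.3%, would be called again at equal occupancy, and 1 was. Over the whole list the calculation gave 39.7%, and 18.9% overlapped a dTAG peak. Peaks enter the calculation because they had been called, so its result is an upper guide. The chance per peak ran from 5.74% to 77.9%, the latter at the Pcdhac1 start. It was at least 50% for 5 peaks and at least 90% for none, so for no single peak can its absence from the dTAG list be told apart from the lower coverage. The 7 peaks found with dTAG cannot be set against 6.36, since only 1 of them was at the place of a DMSO peak.

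**Figure D5:**
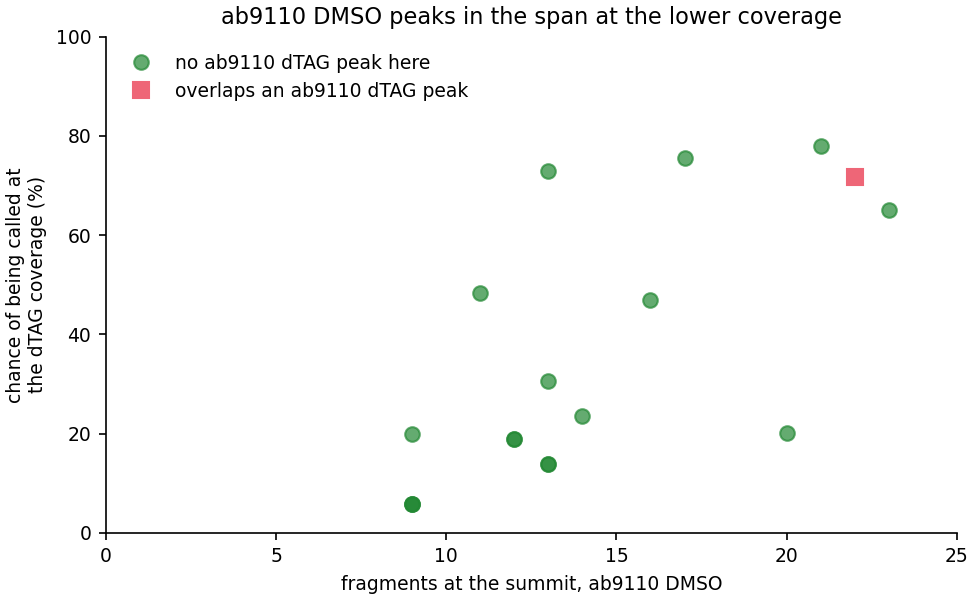
Chance that each of the 18 ab9110 DMSO peaks would be called at the dTAG coverage (y axis, percent) against the fragments at its summit (x axis), with the peak that overlaps an ab9110 dTAG peak as a square. Darker points are peaks with equal values, and chances run from 5.74% to 77.9%.

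GC share and repeated sequence differed between the sub-clusters. The median GC share of first exons was 53.1% in alpha, 45.1% in beta and 52.5% in gamma, with a median observed over expected CpG of 0.665, 0.42 and 0.555. The span as a whole had a GC share of 41.4% and a CpG ratio of 0.283, and 39.0% of it was soft-masked. Of the 58 first exons, 29 held at least 1 word of 100 bases that occurs elsewhere in the genome. The median share of such words was 5.21% in alpha and 0 in beta and gamma, and the highest was 13.0%, in Pcdha11 (ENSMUSG00000102206). A read within such a word cannot be placed uniquely by its own sequence alone.

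Other gene families gave a scale for these shares. Olfactory receptors, a large family of clustered genes of the nasal epithelium, had a first-exon peak in 0.176% (C29F4 DMSO), 0.529% (ab9110 DMSO) and 0.352% (ab9110 dTAG) of 1135 genes. Vomeronasal receptors had one in 0.304%, 1.82% and 0.304% of 329 genes. Zinc finger genes of the Zfp series, which include many clustered repressors, had one in 2.28%, 34.5% and 38.6% of 394 genes. With no C29F4 DMSO peak (0 to 6.16%), the clustered protocadherins could not be ranked against these families in that list. The shares of all these families lie within that interval. In both ab9110 lists the clustered protocadherins lay between the receptors and the zinc finger genes by this share, which is not adjusted for exon length. In ab9110 DMSO their lower bound of 1.08% was below the upper bounds of the olfactory (1.15%) and vomeronasal receptors (3.93%). In ab9110 dTAG the same lower bound was above the upper bound of the olfactory receptors (0.9%) and below that of the vomeronasal receptors (1.68%). Median first exons were 183 bp (olfactory), 292 bp (vomeronasal) and 153 bp (zinc finger), against 2608 bp for the members. Within 1 kb of starts the order was the same, with 3.45% of members (0.42 to 11.9%) in both ab9110 lists. That lower bound was below the upper bounds of both receptor families. Per base, members had 1.09 times the ab9110 DMSO density, against 1.31 (vomeronasal) and 0.342 (olfactory). With ab9110 dTAG they were above both families. Of the non-clustered protocadherins, 1 of 12 had a first-exon peak. This was Pcdh8, with a fold of 3.14 in C29F4 DMSO and 3.07 in ab9110 DMSO, and none with dTAG.

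Genes for factors known to act at the clusters were counted in the same way. Of 15 such genes, none had a C29F4 DMSO or input peak in the first exon, 5 had an ab9110 DMSO peak and 9 an ab9110 dTAG peak. With DMSO these were Ctcf (insulator protein, fold 2.2), Rad21 (cohesin subunit, 2.43), Setdb1 (H3K9 methyltransferase, 3.32), Rest (repressor of neuronal genes, 3.33) and Wiz (zinc finger partner of EHMT2, 2.89). With dTAG they were Ctcf (8.69), Rad21 (4.54), the cohesin genes Smc1a (4.32), Smc3 (3.29) and Stag2 (4.83), the cohesin loader Nipbl (3.10), the cohesin release factor Wapl (3.39), Rest (3.86) and Wiz (5.91). The shares of 33.3% (11.8 to 61.6%) and 60.0% (32.3 to 83.7%) stand beside 16.7% and 26.6% of all protein-coding genes. The first of these backgrounds lies within its interval and the second below its interval. Within 1 kb of the start, 8 of the 15 genes had an ab9110 DMSO peak, 53.3% (26.6 to 78.7%), against 22.1%. By the same window 9 had an ab9110 dTAG peak, 60.0% (32.3 to 83.7%), against 29.6%. Both backgrounds lie below their intervals by that measure. First exons of these genes had a median GC share of 69%, against 60% over all protein-coding genes. Their median observed over expected CpG was 0.886, against 0.655. No background of like composition was counted for them, so the part of composition in the difference was not tested.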

How the data were processed

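The authors aligned paired-end reads to mm10 with STAR 2.7.10, assigning reads with several locations to 1, removed duplicates with Picard 2.26.0 and high-signal regions, and called peaks with MACS2 2.2.6 (q-value under 0.05), per the study's methods and the submitters' processing notes. The C29F4 list was called on merged replicates. Whether a control entered the calls is not given in the sources used here. The fold enrichment of each peak is a deposited ratio of pileup to background at the summit. For each summit the authors also deposited −log10 p and, in the next column, −log10 q. The deposited integer score was not used. Other samples had no list of their own analysed here.

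Peaks were assigned by overlap of at least 1 bp. The first exon is that of the protein-coding transcript starting furthest upstream. The density of a list is its peaks on chromosomes 1 to 19, X and Y over 2648 Mb outside assembly gaps. Windows tiled the chromosomes and had at least 90% of bases outside gaps. Pileup and background were solved from fold and Poisson p-value, and the lowest recurring background was taken as mean coverage. Overlap calls and pileups were tested on 2000 and 916 simulated peaks, with 0 different overlap calls and 100% of pileups recovered. Intervals are exact Poisson or Clopper-Pearson (SciPy 1.17.1). Members, gene lists and measures were chosen with earlier results of these data known. Named are all C29F4, dTAG and input peaks of the span, the 10 ab9110 DMSO peaks with the highest fold, every member with a first-exon peak and the first and last gene of each sub-cluster. The remaining ab9110 DMSO peaks were added after their values were seen. Stricter q-values, other overlap rules, merging, an extended span, removal of input peaks and thinning were tried as alternatives.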

Additional observations from a re-analysis of the deposited data

How the results depend on the processing

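No paired analysis was possible because the C29F4 replicates are merged into 1 list and each ab9110 condition has 1 library; for the same reason no replicate could be left out. Of 91 recomputed values, 73 stayed alike (counts within 1.5 times, shares within the 95% interval), and all 24 recomputed C29F4 values stayed at 0. Among those alike by interval, the share of first exons with an ab9110 DMSO peak fell from 5.17% to 3.45% with q-values under 0.01. It fell to 1.72% with q-values under 0.001, and also when only peaks with a chance of at least 50% at the dTAG coverage were kept. The share with an ab9110 dTAG peak fell from 5.17% to 1.72% with q-values under 0.01. The other 18 were counts or shares that fell because fewer peaks entered. With q-values under 0.01, ab9110 DMSO peaks fell to 9 in the span, 2 in alpha and 1 in beta, ab9110 dTAG peaks to 3 in the span and 0 in alpha, and input peaks to 0 in the span and in gamma. With q-values under 0.001, ab9110 DMSO had 6 in the span, 2 in alpha, 0 in beta and 3 in gamma, ab9110 dTAG had 1 in the span and 0 in alpha and gamma with 0% of first exons, and the input had 0 in the span and in gamma. At the dTAG coverage, 6.36 ab9110 DMSO peaks were expected in the span. Summit-based rules, a span extended by 50 kb, merging within 500 bp and removal of input peaks left every recomputed count within 1.5 times. The window around starts was chosen after seeing the data. Coverage limits these lists: peaks of the span rested on 7 to 23 fragments, and counts per sub-cluster were at most 6. At sites with mean background, folds below those callable at mean coverage would be missed. Where the background was higher, lower folds were called, down to 2.52 in ab9110 DMSO within the span. Folds of different lists were not compared.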
